A study of Mus musculus with 6 samples.

Results

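The 39 protein-coding Hox genes of the mouse were followed in GLUTag cells, a murine line of enteroendocrine cells that secretes glucagon-like peptide 1. The members were every row of the count matrix that mapped to a protein-coding symbol made of Hox, a cluster letter from a to d and a number, which gave 39 of 54281 genes; antisense and host genes were left out. All 39 were found, 11 in the Hoxa cluster, 10 in Hoxb, 9 in Hoxc and 9 in Hoxd. GLUTag descends from a colonic tumour of a mouse that carried the SV40 large T antigen under the proglucagon promoter, so the line is a single immortalised population and not a primary cell.

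Hox genes encode homeodomain transcription factors that lie in clusters on separate chromosomes. Within a cluster, genes with low paralog numbers act towards the head and those with high numbers towards the tail, and this nested code is laid down in the gut tube of the embryo, in its epithelium and in its mesenchyme, before it is divided into regions. Genes with the same number in different clusters are paralogs, that is, copies of a common ancestor. Hox proteins bind DNA together with TALE homeodomain partners of the Pbx, Meis and Pknox families, Cdx proteins activate several Hox genes from the centre of the clusters, retinoic acid induces those at the anterior end, and Polycomb and Trithorax complexes keep clusters silent or active.

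The data were 6 libraries of 3′ mRNA-sequencing, which reads each polyadenylated transcript near its 3′ end. All came from untreated cells of the same line, grown for 48 h in low glucose DMEM (1 g/L) with GlutaMAX and 10% heat inactivated FBS on Matrigel-coated 6-well dishes. Replicates 1 to 3 were labelled plate 1 and passage 23, and the other 3 libraries plate 2 and passage 27. The labels do not say whether the replicates of a plate were separate wells. The columns of plate 2 could not be tied to single replicate numbers and are named here by their total count, as the lowest, middle and highest total. Since plate and passage changed together they cannot be told apart. All libraries came from the same line, so every p-value below measures the spread between libraries of that line only.

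The libraries held 21399987 to 36488198 counts, and values are given as CPM, the count scaled to a library total of 1000000. Because 3′ counts stand for transcripts and not for transcript length, CPM was compared between genes without division by length. Shared exon bases can still shift the value of a single gene. Such bases were shared with another gene on the same strand by 9 Hox genes and on the opposite strand by 10. A count of 0 in a library allows up to 3 counts, equal to 0.0822 to 0.14 CPM, so a gene was called detected when it had more than 3 counts in every library; such limits cover counting error only. All 9 enteroendocrine markers were detected, led by Gcg, the proglucagon gene, at 3416 ± 771 CPM (SD, n = 6). Of 9 markers of other gut epithelium 3 were detected, Krt20 at 41.4 ± 6.67 CPM, Lgr5 at 3.19 ± 1.16 CPM and Vil1 at 2.13 ± 0.735 CPM, while Epcam and Cdh1, which define epithelium, had at most 4 and 5 counts in any library. Of 8 mesenchyme markers only Col1a2 was detected; Col3a1 and Lum had no count, and the summed level of the list was 4.91 to 7.12 CPM on plate 1 and 5.51 to 7.15 CPM on plate 2. The blood, endothelial, and enteric neuron and glia lists had 1 of 5, 1 of 3 and 2 of 6 genes detected: Itgam at 1.24 ± 0.523 CPM, Pecam1 at 43.0 ± 33.3 CPM (3.41 to 99.8 CPM) and, among others, Ret at 12.4 ± 4.59 CPM. In bulk libraries, fewer cells expressing a gene and less RNA of it per cell cannot be told apart.

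The Hox genes detected lay mostly in the Hoxa and Hoxb clusters, and most of their counts came from paralog numbers 4 to 8. Of the 39 genes, 17 (43.6%) were detected, against 28.1% of all genes in the matrix and 58.4% of the protein-coding genes. By cluster these were 7 of 11 Hoxa genes, 7 of 10 Hoxb genes, 3 of 9 Hoxc genes and 0 of 9 Hoxd genes. By paralog number, 4 of 8 anterior genes (1 to 3), 10 of 15 central genes (4 to 8) and 3 of 16 posterior genes (9 to 13) were detected. The median level of the detected Hox genes was 6.34 CPM, below the 13.8 CPM of all detected genes. Their median coefficient of variation over the 6 libraries was 20.7%, against 22.6% for all detected genes.

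**Figure D1:**
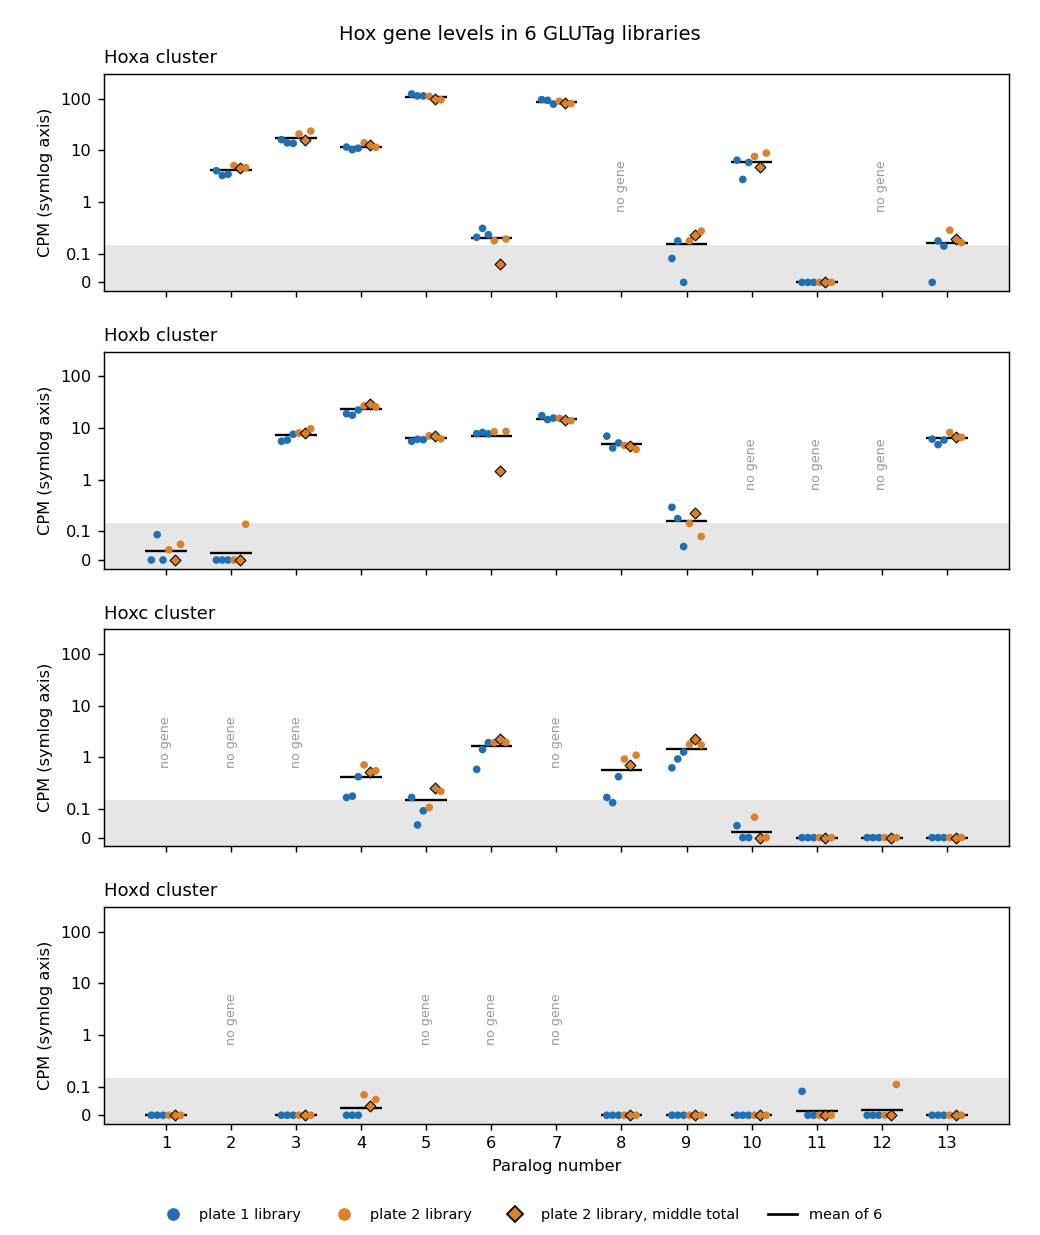
CPM of the Hox genes reported (symlog y axis, linear near 0) by paralog number (x axis), with 1 panel for each cluster. Points are single libraries, bars are means of 6, and the grey band ends at 0.14 CPM, the largest value that 3 counts can have. Hoxa5 and Hoxa7 stand above all others with Hoxa6 between them near the band, and no Hoxd gene rises clear of it.

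In sum the 39 genes took 312 ± 15.5 CPM (SD, n = 6; 299 to 334 CPM). The Hoxa cluster, on the minus strand at chr6:52155590-52260880 (GRCm38), supplied 236 ± 14.9 CPM, or 75.9 ± 2.26% of it. The Hoxb cluster, at chr11:96194316-96368256 on the plus strand, supplied 70.9 ± 5.90 CPM, or 22.7 ± 1.72%. The Hoxc cluster, at chr15:102921103-103036852 on the plus strand, gave 4.28 ± 1.74 CPM, and the Hoxd cluster, at chr2:74668310-74765142 on the plus strand, gave 0.0586 ± 0.0625 CPM, or 0.0374 CPM without the plate 2 library with the highest total. The order Hoxa, Hoxb, Hoxc, Hoxd held in each of the 6 libraries, with no overlap between their ranges. By paralog number, the central genes made up 86.0 ± 2.80% of the sum (268 ± 15.1 CPM), the anterior genes 9.40 ± 1.85% (29.3 ± 5.95 CPM) and the posterior genes 4.60 ± 1.02% (14.4 ± 3.42 CPM). Paralog groups 5 and 7 alone accounted for 37.2 ± 2.77% and 32.8 ± 1.92% of the sum. These sums describe the members and were not tested.

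**Figure D2:**
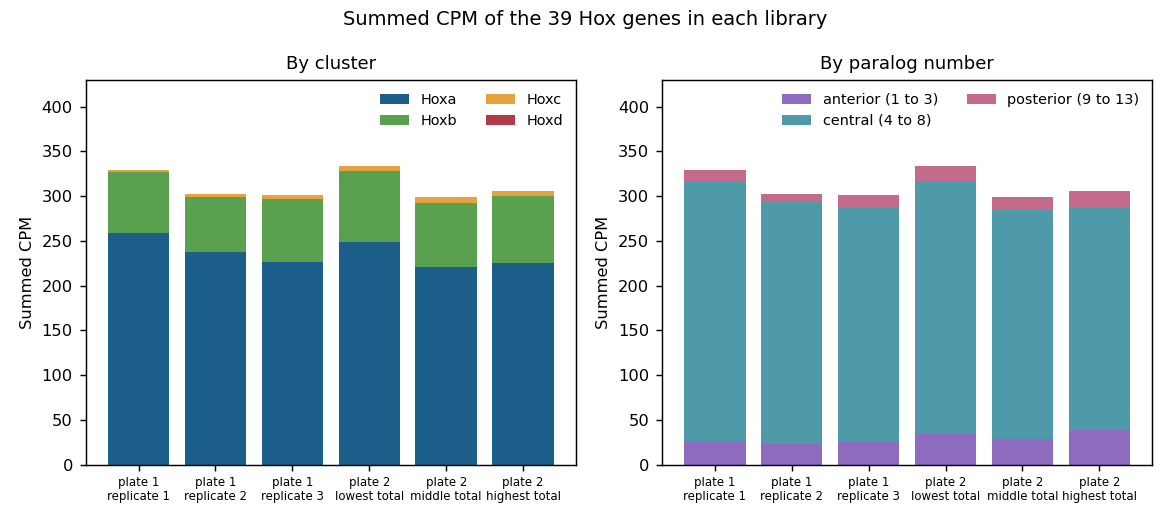
Stacked bars of the summed CPM (y axis, from 0) of the 39 Hox genes in each library (x axis), split by cluster on the left and by paralog number on the right. Every bar lies between 299 and 334 CPM and is mostly Hoxa and mostly central genes; the Hoxd part is too small to see.

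Hoxa5 and Hoxa7 carried most of this signal. Together they held 196 ± 16.1 CPM, or 63.0 ± 4.17% of all Hox counts. Hoxa5 (chr6:52201754-52204587), which is needed in the mesenchyme of the embryonic lung and gut, was at 124, 114 and 113 CPM in replicates 1, 2 and 3 of plate 1. On plate 2 it was at 111, 99.2 and 95.2 CPM in the libraries with the lowest, middle and highest total. Every plate 2 library thus lay below every plate 1 library, and the mean of 109 ± 10.5 CPM exceeded that of 89.6% of detected genes. Hoxa7 (chr6:52214491-52221854), which patterns thoracic vertebrae, was at 96.0, 93.1 and 78.6 CPM on plate 1 and at 89.4, 83.5 and 80.8 CPM on plate 2. It was below Hoxa5 in each library, although the ranges of the 2 genes over the libraries just met (78.6 to 96.0 and 95.2 to 124 CPM). Between them, Hoxa6 (chr6:52206288-52208722) had 2 to 7 counts in a library, a mean of 0.198 ± 0.0800 CPM, and did not pass the detection limit in the middle library.

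The 3 genes sit close together, with 1.70 kb between Hoxa5 and Hoxa6 and 5.77 kb between Hoxa6 and Hoxa7. Their start regions are shown because the level changed so steeply from each gene to the next. RefSeq windows (GRCm38.p6) of 300 bases, from 250 before to 50 after a start, were at hand for 22 of the 39 Hox genes. Those of Hoxa5 (chr6:52204538-52204837), Hoxa6 (chr6:52208623-52208922) and Hoxa7 (chr6:52218524-52218823), all on the minus strand, and of Hoxd4 (chr2:74721728-74722027, plus strand), from the silent cluster, are printed 5′ to 3′. Capitals mark the letters TTTATG, a core recognised by Cdx proteins, searched on both strands.
Hoxa5: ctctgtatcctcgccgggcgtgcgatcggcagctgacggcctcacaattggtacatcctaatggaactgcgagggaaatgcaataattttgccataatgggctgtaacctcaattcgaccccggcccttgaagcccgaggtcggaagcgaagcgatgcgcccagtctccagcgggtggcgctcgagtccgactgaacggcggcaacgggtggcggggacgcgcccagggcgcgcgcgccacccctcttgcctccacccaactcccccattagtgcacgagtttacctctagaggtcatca
Hoxa6: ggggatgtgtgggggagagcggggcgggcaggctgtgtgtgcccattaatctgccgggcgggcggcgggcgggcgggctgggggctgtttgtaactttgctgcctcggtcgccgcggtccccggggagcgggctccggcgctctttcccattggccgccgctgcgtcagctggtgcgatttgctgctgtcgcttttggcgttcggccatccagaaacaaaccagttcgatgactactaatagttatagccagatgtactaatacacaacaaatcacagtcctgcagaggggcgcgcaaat
Hoxa7: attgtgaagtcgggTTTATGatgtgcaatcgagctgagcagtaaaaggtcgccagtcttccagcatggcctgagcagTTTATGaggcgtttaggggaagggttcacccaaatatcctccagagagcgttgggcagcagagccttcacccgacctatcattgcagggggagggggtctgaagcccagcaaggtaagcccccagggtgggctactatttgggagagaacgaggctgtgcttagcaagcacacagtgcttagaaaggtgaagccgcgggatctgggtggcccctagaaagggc
Hoxd4: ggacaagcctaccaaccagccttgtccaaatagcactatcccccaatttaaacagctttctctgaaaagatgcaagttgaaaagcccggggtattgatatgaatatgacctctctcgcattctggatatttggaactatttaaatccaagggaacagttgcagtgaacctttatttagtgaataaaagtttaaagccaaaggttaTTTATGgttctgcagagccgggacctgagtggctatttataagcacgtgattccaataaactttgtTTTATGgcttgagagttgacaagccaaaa
The letters occurred 2 times in the windows of Hoxa7 and Hoxd4 and in neither of the other 2. Among all 32851 windows of this length 11.9% held them at least 1 time and 1.27% at least 2 times; among the 24 windows of the 22 Hox genes 5 held them, namely those of Hoxa7, Hoxb8, Hoxd3, Hoxd4 and 1 start of Hoxd11. Of these genes Hoxa7 and Hoxb8 were detected and the Hoxd genes were not. The window of Hoxa7 starts at a RefSeq site 138 bases from the nearest GENCODE start. CG dinucleotides numbered 29 in the Hoxa5 window, 26 in that of Hoxa6 and 9 in that of Hoxa7. Over all Hox windows the median was 14.5 CG dinucleotides, against 7 over all windows; it was 13 (range 9 to 29) in the 9 windows of detected genes and 20 (range 4 to 45) in the 15 windows of genes not detected. The windows were spread unevenly over the clusters, with none for Hoxb3, Hoxb7, Hoxb13, Hoxc6 or Hoxc9 among the detected genes. A match is a description of the letters, and methylation was not measured here. Whether matches or CG dinucleotides bear on the levels was not tested.

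Among the anterior genes, Hoxa3, which patterns the pharyngeal arches that form the thymus and parathyroid, had the highest level. It was at 16.1, 13.96 and 13.7 CPM on plate 1 and at 20.7, 16.0 and 23.6 CPM on plate 2, a mean of 17.4 ± 3.97 CPM (SD, n = 6). Hoxb3, its paralog, was at 5.54, 5.83 and 7.57 CPM on plate 1 and at 8.05, 7.86 and 9.70 CPM on plate 2. Hoxa2, the selector of skeletal identity in a pharyngeal arch, was at 4.04, 3.27 and 3.46 CPM on plate 1 and at 5.09, 4.46 and 4.63 CPM on plate 2. For Hoxa2 and Hoxb3 the plate 2 libraries lay above all plate 1 libraries on this scale but not on TMM-scaled CPM, while for Hoxa3 they overlapped on both. Hoxb1, Hoxb2, Hoxd1 and Hoxd3 were not detected: Hoxb1 had at most 2 counts, Hoxb2 had 5 counts in a single library, and Hoxd1 and Hoxd3 had none.

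Among the central genes of Hoxb, Hoxb4 (chr11:96318267-96321638), known for expanding blood stem cells when overexpressed, was the highest. It was at 18.9, 17.7 and 22.3 CPM on plate 1 and at 27.0, 29.5 and 25.6 CPM on plate 2, a mean of 23.5 ± 4.65 CPM. Hoxa4, its paralog, was at 11.6, 10.3 and 11.03 CPM on plate 1 and at 14.03, 12.5 and 11.5 CPM on plate 2. Hoxb7 was at 17.3, 14.6 and 15.6 CPM on plate 1 and at 15.5, 14.5 and 13.8 CPM on plate 2, well under its paralog Hoxa7. Hoxb5, which acts in the migration of enteric neural crest cells, was at 5.54, 6.05 and 5.93 CPM on plate 1 and at 7.09, 6.89 and 6.17 CPM on plate 2, far under Hoxa5. Among the paralogs of group 5, Hoxc5 had 1 to 8 counts. The group 4 genes ranked in another order than those of groups 5 and 7, with the Hoxb copy above the Hoxa copy in each library.

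Hoxb8, whose loss in mice causes excessive grooming, was at 6.96, 4.11 and 5.14 CPM on plate 1 and at 4.59, 4.50 and 3.84 CPM on plate 2. Hoxb6 (chr11:96292476-96301569) was at 7.75, 8.22 and 7.71 CPM on plate 1 and at 8.44, 1.46 and 8.61 CPM on plate 2. The middle library of plate 2 stood alone, and the mean was 7.03 ± 2.75 CPM with it (n = 6) and 8.15 ± 0.402 CPM without it (n = 5). Hoxb6 was 5.85-fold lower in that library than the mean of the other plate 2 libraries. It was the only 1 of 15 Hox genes of at least 1 CPM to be more than 2-fold lower there, while 9.13% of all genes of at least 1 CPM were (1234 of 13516). The next Hox genes in this respect were Hoxa10, 1.74-fold lower, and Hoxa3, 1.38-fold lower. The last 200 bases of the Hoxb6 transcripts were 31.8% G and C, against a median of 44.5% over the 15 Hox genes, but Hoxa5 (30.5%) and Hoxa2 (31.0%) had ends as poor in G and C and were 1.04- and 1.09-fold lower. The part of transcript composition in the Hoxb6 value was not tested.

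**Figure D3:**
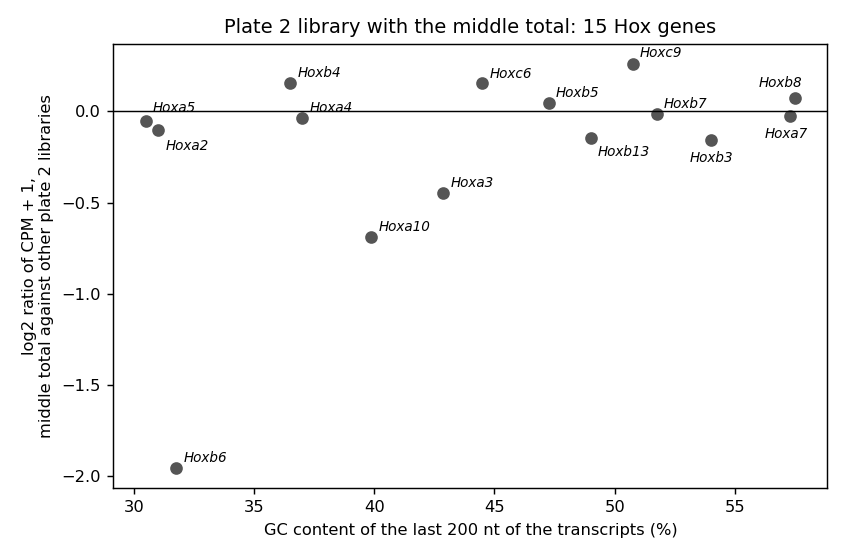
Log2 ratio of CPM + 1 in the middle library of plate 2 against the mean of its companions (y axis), by the share of G and C in the final 200 nt of the transcripts (x axis, %), for 15 Hox genes averaging 1 CPM or more. Hoxb6 lies alone at -1.96, and Hoxa5 and Hoxa2, with a like share, lie at -0.05 and -0.10.

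The Hoxc genes were low. Hoxc6 was at 0.583, 1.41 and 1.92 CPM on plate 1 and at 1.92, 2.26 and 1.95 CPM on plate 2, which is 14 to 71 counts. Hoxc9, which sets the identity of thoracic motor neurons, was at 0.63, 0.93 and 1.26 CPM on plate 1 and at 1.78, 2.30 and 1.73 CPM on plate 2. Hoxc4 had 4 to 20 counts and Hoxc8 had 3 to 40, so that Hoxc8 missed the detection limit through a single library of plate 1. In the 3 plate 1 libraries Hoxc genes made up 0.931% of all Hox counts on average, and in the 3 plate 2 libraries 1.83%. Hoxc10 had at most 2 counts, and Hoxc11, Hoxc12 and Hoxc13 had none.

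Of 16 posterior genes, Hoxb13, Hoxa10 and Hoxc9 were detected. Hoxb13 (chr11:96194316-96197447), a gene of the hindgut and prostate, was at 6.08, 4.77 and 5.84 CPM on plate 1 and at 8.19, 6.57 and 6.58 CPM on plate 2. Hoxa10 (chr6:52231197-52240854), which acts in lumbar vertebrae and the uterus, was at 6.46, 2.74 and 5.84 CPM on plate 1 and at 7.66, 4.76 and 8.88 CPM on plate 2. Replicate 2 of plate 1 was the lowest library for both, and the plates overlapped for Hoxa10. For Hoxb13 they did not on this scale, but they did on CPM scaled by TMM, edgeR's correction of library size. Hoxb13 lies apart from the rest of its cluster, 74.0 kb from Hoxb9, and Hoxb9 itself had 1 to 7 counts. Hoxa13, which with Hoxd13 patterns the hindgut and the distal limb, had 0 to 8 counts, and Hoxd13 had none. Hoxa9 had 0 to 10 counts and Hoxa11 had none.

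No gene of the Hoxd cluster was detected. Hoxd1, Hoxd3, Hoxd8, Hoxd9, Hoxd10 and Hoxd13 had no count in any of the 6 libraries, which allows at most 0.0822 to 0.14 CPM in each. Hoxd4, Hoxd11 and Hoxd12 had at most 2, 2 and 4 counts. In all, 10 Hox genes had no count in any library (Hoxa11, Hoxc11, Hoxc12 and Hoxc13 with the 6 above). A further 12 had some counts without passing the limit, of which Hoxc8 had the most, 40 in 1 library. Evx2, the homeobox gene at the posterior end of Hoxd and 8.75 kb from it, had no count either. Farther out, Lnpk at 88.9 kb was at 22.9 ± 3.73 CPM, Mtx2 at 60.7 kb on the other side was at 26.4 ± 5.04 CPM, and Hnrnpa3, an RNA-binding protein gene at 894 kb, was at 764 ± 152 CPM.

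The levels of genes next to each other were compared within libraries, by an exact two-sided sign-flip test of the log2 ratio of CPM + 1 over the 6 libraries. The test treats the 6 libraries as independent. It does not take into account that 3 of them share each plate and passage. Of 35 adjacent pairs 22 had at least 1 detected gene and were tested, and 20 passed, each in the same direction in 6 of 6 libraries (exact p = 0.03125, the smallest that 6 libraries allow; adjusted p = 0.0344). In 12 of these a gene was not detected. Such a pair was tested only because its neighbour was detected. The choice of pairs thus largely set the direction, and these 12 passes add no support of their own. Of the 9 pairs with both genes detected, 8 passed. Along Hoxa the log2 ratio of a gene to the next was -1.82 ± 0.17 (SD, n = 6) for Hoxa2 to Hoxa3, 0.50 ± 0.25 for Hoxa3 to Hoxa4 and -3.11 ± 0.22 for Hoxa4 to Hoxa5, so that the level climbed from Hoxa2 to Hoxa3, dipped at Hoxa4 and peaked at Hoxa5. Along Hoxb the log2 ratio was -1.54 ± 0.17 for Hoxb3 to Hoxb4, 1.73 ± 0.20 for Hoxb4 to Hoxb5, -1.14 ± 0.76 for Hoxb6 to Hoxb7 and 1.49 ± 0.15 for Hoxb7 to Hoxb8, which leaves peaks at Hoxb4 and Hoxb7. The steepest steps among the pairs tested were those on both sides of Hoxa6 and that from Hoxa7 to Hoxa9, with log2 ratios of 6.52 ± 0.12 for Hoxa5 to Hoxa6, -6.20 ± 0.13 for Hoxa6 to Hoxa7 and 6.25 ± 0.17 for Hoxa7 to Hoxa9. Since Hoxa6 and Hoxa9 were not detected, the size of these steps depends on the pseudocount: they were 8.57, -8.24 and 8.52 with 0.1 CPM and 4.45, -4.14 and 4.15 with 5 CPM. Among the posterior genes the log2 ratio was -2.65 ± 0.25 for Hoxb9 to Hoxb13 and -2.55 ± 0.50 for Hoxa9 to Hoxa10, whereas Hoxb9 was below Hoxb8 (2.32 ± 0.22 for Hoxb8 to Hoxb9) and Hoxa11, with no count, below Hoxa10.

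Hoxb5 and Hoxb6 could not be separated (log2 ratio -0.016 ± 0.84, exact permutation p = 1). Hoxb6 was the higher in 5 of 6 libraries, and without the middle library of plate 2 the ratio was -0.36. Hoxc4 and Hoxc5, both near the limit, differed by 0.30 ± 0.21, with Hoxc4 above in 5 of 6 libraries (exact permutation p = 0.0625, adjusted p = 0.0655). The level thus changed direction several times along Hoxa and Hoxb and did not follow paralog number.

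Transcripts that are not protein-coding Hox genes were read in the same clusters. Of 43 non-coding or pseudogene entries within the 4 clusters 7 were detected, while 28.1% of all genes in the matrix were. By cluster these were 5 of 18 in Hoxa, 2 of 9 in Hoxb, 0 of 7 in Hoxc and 0 of 9 in Hoxd. The highest was Hoxaas3 (chr6:52175217-52215076, plus strand), antisense to the genes from Hoxa3 to Hoxa7, at 40.5 ± 4.35 CPM (33.2 to 46.3 CPM). Hotairm1 (chr6:52156902-52162119, plus strand), known as a myeloid non-coding RNA, was at 7.66 ± 0.80 CPM. Hoxb5os, antisense in Hoxb, was at 2.41 ± 0.415 CPM. Hoxc and Hoxd had at most 1 count of any such entry. In Hoxc all entries but Hotair were microRNA or miscellaneous RNA entries, so the counts by cluster do not compare like with like. Among the entries detected, Gm27868 lies within Hotairm1 on the same strand, and Gm11539 in Hoxb is a processed pseudogene. Exons of Hoxaas3 and Hoxa7 share 586 bases on opposite strands, 421 of them in the last 500 bases of a transcript of each, and reads of the pair can be told apart only by strand. The kit keeps strand, but the setting used for counting was not given in the sources used here, so the values of Hoxa7 and Hoxaas3 are uncertain to that extent.

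The partners and regulators of Hox proteins were read from lists. Of 9 TALE cofactors 6 were detected, among them Pbx2 at 22.4 ± 1.81 CPM and Pknox1 at 21.9 ± 3.89 CPM. In the Meis family, which helps Hox and Pbx proteins bind DNA, Meis3 was at 11.8 ± 2.35 CPM, while Meis1 and Meis2 had at most 1 and 3 counts in a library. Of 6 ParaHox genes, the sister cluster of the Hox genes, Cdx2 and Pdx1 were detected. Cdx2, which sets intestinal identity, was at 58.3, 50.3 and 59.3 CPM on plate 1 and at 60.1, 53.2 and 55.0 CPM on plate 2. Pdx1, a factor of duodenum and pancreas, was at 19.8, 23.9 and 18.8 CPM on plate 1 and at 24.7, 19.8 and 22.6 CPM on plate 2. The plates overlapped for both, and Cdx1, Cdx4 and Gsx2 had no count. Among 7 other factors of gut regions, Onecut2 was at 48.4 ± 7.10 CPM and Gata4, a factor of stomach and proximal intestine, at 20.2 ± 2.71 CPM, while Gata6 and Sox2 had no count and Gata5 and Barx1 at most 1 and 3.

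All 16 Polycomb genes were detected, led by Ezh2 (183 ± 19.8 CPM), Suz12 (169 ± 40.0 CPM) and Bmi1 (59.8 ± 9.19 CPM), subunits of the complexes that hold Hox clusters silent. All 10 Trithorax genes were detected too, led by Psip1 (327 ± 36 CPM), Dpy30 (182 ± 14.6 CPM) and Kmt2a (88.4 ± 13.9 CPM), the methyltransferase that keeps Hox genes active. Of 18 retinoic acid genes 9 were detected. Aldh1a3, an enzyme that makes retinoic acid, was at 68.3 ± 24.5 CPM with the middle library of plate 2 lowest at 23.0 CPM, and Rxrb and Rxra, partners of the retinoic acid receptors, were at 30.4 ± 4.67 and 9.31 ± 1.43 CPM. Aldh1a2, the enzyme that serves the embryonic trunk, and Cyp26c1, which breaks retinoic acid down, had no count.

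**Figure D4:**
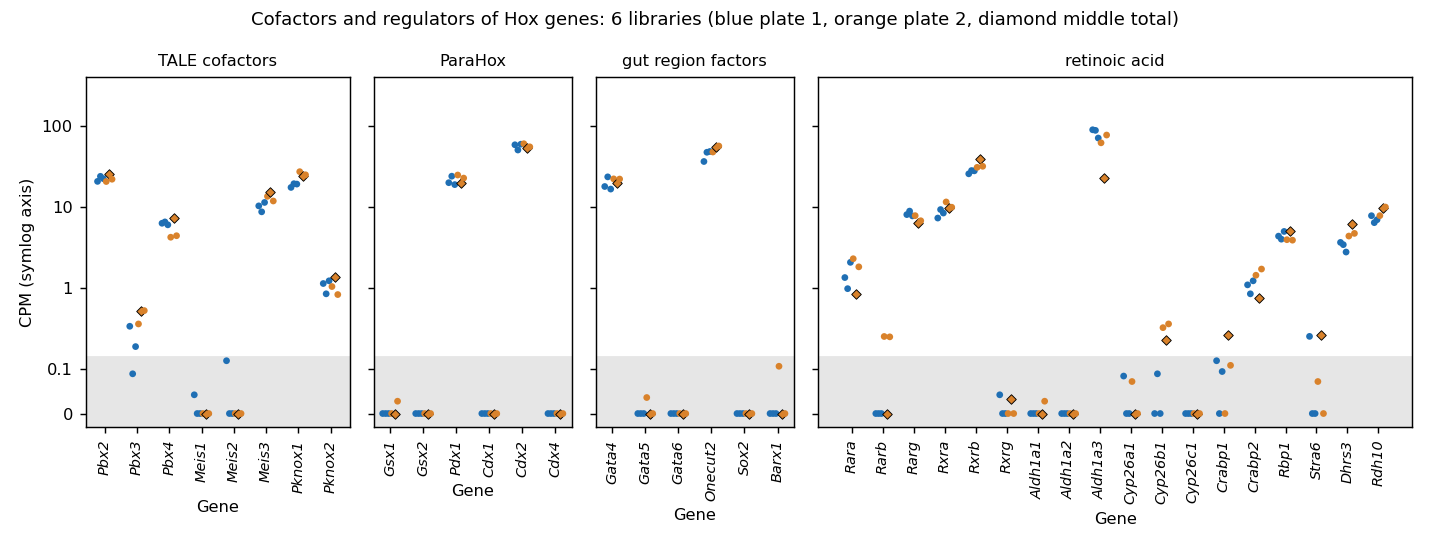
CPM in each of the 6 libraries (symlog y axis, linear near 0) of the TALE cofactors, ParaHox genes, gut region factors and retinoic acid genes reported (x axis). The grey band ends at 0.14 CPM; Cdx2 is highest among the ParaHox genes and Aldh1a3 among the retinoic acid genes.

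The plates were compared because plate is the only contrast the labels hold. With edgeR's quasi-likelihood test and Benjamini-Hochberg adjustment over 15669 genes, 0 of the 17 Hox genes tested passed an adjusted p of 0.05, against 29 of all genes (0.185%). The other 22 did not pass the filter on low counts and were not tested. At an unadjusted p under 0.05 there were 5 Hox genes (29.4%), against 16.1% of all genes. By limma-voom 0 passed (0.191% of all genes), as with edgeR and no scaling (9.46%) or no filter (2.02%), and by DESeq2 1 did, Hoxa5 (adjusted p = 0.0346), against 3.89% of all genes. Without the middle library of plate 2, Hoxa5 (adjusted p = 0.00634) and Hoxa7 (adjusted p = 0.0418) passed, but so did 12% of all genes.

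The Hox genes with the lowest adjusted p were Hoxa5, Hoxc8, Hoxa7, Hoxb7, Hoxb8 and Hoxc9, none of which passed. By edgeR the log2 fold change of plate 2 against plate 1 was -0.47 ± 0.11 (SE; adjusted p = 0.118) for Hoxa5, -0.35 ± 0.12 (adjusted p = 0.22) for Hoxa7, -0.38 ± 0.14 (adjusted p = 0.221) for Hoxb7 and -0.59 ± 0.23 (adjusted p = 0.256) for Hoxb8. It was 1.66 ± 0.56 (adjusted p = 0.199) for Hoxc8 and 0.78 ± 0.36 (adjusted p = 0.32) for Hoxc9. The signs of these 6 were the same under each alternative fitted, 12 for each gene other than Hoxc8, which had 11. Their sizes moved. Without TMM factors they were -0.20 for Hoxa5, -0.077 for Hoxa7, -0.12 for Hoxb7 and -0.33 for Hoxb8. For Hoxc8 and Hoxc9 they were then 1.92 and 1.05. On TMM-scaled CPM the plates did not overlap for 5 genes that were lower on plate 2 (Hoxa5, Hoxa7, Hoxb6, Hoxb7 and Hoxb8; 29.4% of those tested, against 12% of all genes). The same held for 3 genes that were higher (Hoxc4, Hoxc8 and Hoxc9; 17.6%, against 12.8% of all genes). This balance turned on CPM without TMM factors, a count added after the data were seen, where 1 gene was lower without overlap (Hoxa5; against 4% of all genes) and 9 were higher (Hoxa2, Hoxb3, Hoxb4, Hoxb5, Hoxb13, Hoxc4, Hoxc6, Hoxc8 and Hoxc9; against 35.2% of all genes). The median log2 fold change was 0.13 over the 17 Hox genes and 0.03 over all genes. Without replicate 2 of plate 1 these medians were 0.0020 and 0.026. Without the plate 2 library with the highest total they were 0.062 and 0.015. Scaling moved these values: without TMM factors the median was 0.40 over the Hox genes and 0.30 over all genes. For all genes this was a shift of 0.27, and 12 rather than 10 Hox genes had positive values. Hoxa4, Hoxa10, Hoxb5 and Hoxb13 changed sign between alternatives.

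**Figure D5:**
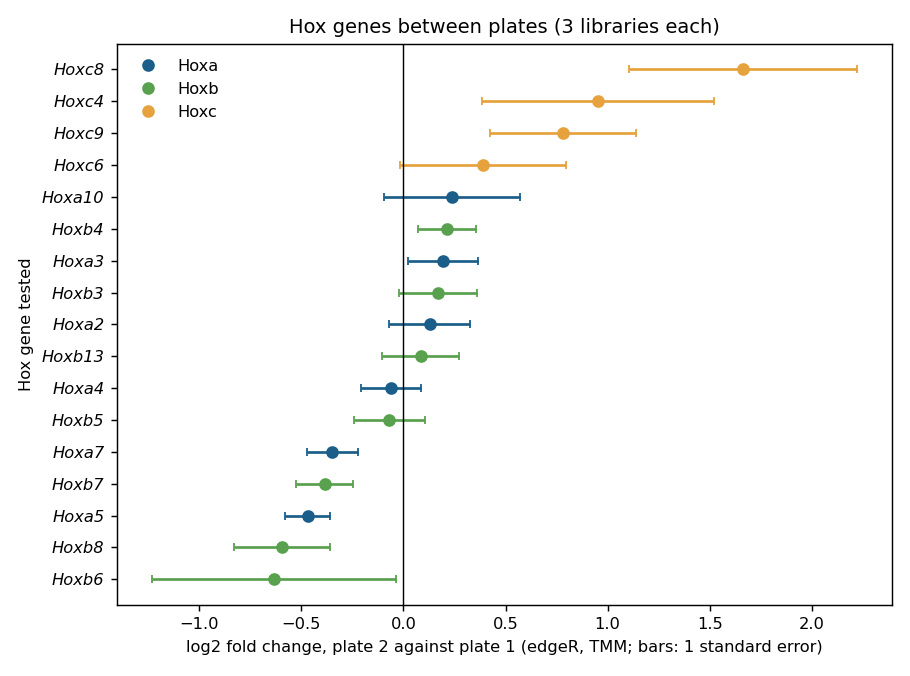
Log2 fold change of plate 2 against plate 1 (x axis; edgeR with TMM scaling, bars 1 standard error, 3 libraries on each plate) for the 17 Hox genes tested (y axis). Hoxc8 lies highest at 1.66 and Hoxb6 lowest at -0.63, and none passed the adjusted threshold. Without the middle library of plate 2 (not drawn), Hoxb6 was at -0.20 and Hoxb8 was lowest at -0.67.

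No gene of the lists passed the same test between plates. Of all genes 0.185% did (29 of 15669), so 0 is near that share and says nothing particular about the lists. Of 6 TALE, 2 ParaHox, 16 Polycomb, 10 Trithorax, 9 retinoic acid and 3 gut region genes tested, and of 13 genes from the flanks of the clusters, 0 passed in either direction. At an unadjusted p under 0.05 there were 1 ParaHox gene (Cdx2), 2 Polycomb, 3 Trithorax and 1 retinoic acid gene (Rarg), against 16.1% of all genes. The log2 fold change of Cdx2 was -0.26 ± 0.12 (adjusted p = 0.307). Kdm6b, a demethylase that counters Polycomb, was at -0.93 ± 0.21 (adjusted p = 0.11), and Kmt2b, a Trithorax methyltransferase, at 0.65 ± 0.16 (adjusted p = 0.118).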

How the data were processed

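GLUTag mRNA was isolated with Dynabeads and made into QuantSeq 3′ FWD libraries. The authors trimmed reads with Trim Galore (0.6.4) and quantified them with Salmon (1.5.1) against GENCODE M23 (GRCm38), with no length correction; Tximeta summed these to the deposited expected counts of each gene, which were not normalized. No column was without a sample. Coordinates and names were taken here from GENCODE M21 of the same build, which held 54107 of 54281 IDs, and start regions from RefSeq.

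CPM was computed over the column total of each library (21399987 to 36488198 counts). All 6 libraries differed from each other by more than counting noise. Expected counts were rounded and the plates compared by the quasi-likelihood test of edgeR 4.0.16 (robust fit, filterByExpr, TMM scaling, Benjamini-Hochberg adjustment), with DESeq2 1.42.0 and limma 3.58.1 as alternatives, in R 4.3.3. The edgeR test was tried on simulated counts with 200 genes changed between the plates. It recovered 45.2% of 2-fold and 95.8% of 4-fold changes, and 4.24% and 4.73% of its calls were false. The simulation gave all genes the same spread and held no outlying library. Changes under 2-fold can be missed, so 0 genes passing does not show equal levels. Adjacent genes were compared by exact sign-flip tests with a pseudocount of 1 CPM, adjusted over the 22 pairs tested. Cluster and class sums were described and not tested. Other settings were pseudocounts of 0.1 and 5 CPM, other scalings, no filter, a filter of 10 counts, and leaving out each library.

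All 39 Hox genes were accounted for in counts and sums, and values of some single genes are not reported here; values in every library were given for those detected with a mean of at least 1 CPM, and the highest 3 and those with no count were named from each list of regulators. The members and lists were chosen with earlier results of these data known.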

Additional observations from a re-analysis of the deposited data

Results flagged for a closer look

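Of 29 values tested for a library far from the others (Hox genes and non-coding entries of their clusters with a mean count of at least 10, and the sums by cluster and paralog number), 1 was picked out: Hoxb6, at 1.456 CPM in the middle library of plate 2 (by total count) against 7.71 to 8.606 CPM in the other 5. The gap to the nearest library was 0.875 of the whole range, above Dixon's 95% critical value for 6 samples. Chance alone picks out about 5% of such groups. With that library left out the mean of Hoxb6 was 8.145 CPM in place of 7.03 CPM.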

How the results depend on the processing

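Of the 39 Hox genes, 29 had any count in any library, against 17 with more than 3 counts in each. With at least 1 CPM in every library 13 passed, on plate 1 alone 18 and on plate 2 alone 20 passed, and leaving out each library gave 17 to 18. The log2 ratio of Hoxb5 to Hoxb6 turned from -0.016 to 0.027 with a pseudocount of 0.1 CPM; it was 0.35 on plate 2 alone, -0.38 on plate 1 alone and -0.36 to 0.065 when a library was left out, negative only without the middle library of plate 2, all within 1 SD. The recomputed ratios of the other pairs kept their sign, and the 135 recomputed CPM values of Hox genes and the sums stayed within 1 SD. In the plate comparison DESeq2 passed 1 Hox gene, limma-voom, other scalings and other filters 0, and leaving out a library gave 0 to 2, with 2 without the middle library of plate 2. For the lists the count of 0 became 2 with DESeq2, 5 with no scaling, 2 with no filter, and 0 to 8 when a library was left out, with 8 without that middle library. The cause was not tested. Over all genes, the same settings passed 530, 1482, 545 and 0 to 1911 genes, against 29. Low counts limit the Hoxc and Hoxd values. No paired analysis was possible because replicates are labelled 1 to 3 on plate 1 and 4 to 6 on plate 2, and the columns of plate 2, numbered anew from 1, could not be tied to those labels.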

Other observations

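Of 17 genes listed from the flanks of the clusters 16 were matched and 13 detected. The highest were Hnrnpa3, 894 kb from Hoxd, at 764 ± 152 CPM (SD, n = 6), Cbx5, a heterochromatin protein gene 155 kb from Hoxc, at 392 ± 42.5 CPM, and Skap2, an adaptor gene 143 kb from Hoxa, at 119.5 ± 18.3 CPM. Hnrnpa3 and Cbx5 were above every Hox gene of the cluster named with them. Skap2 was below Hoxa5 in the 3 libraries of plate 1 (109, 99.2 and 102 CPM) and above it in the 3 of plate 2 (129, 139.97 and 138 CPM). Evx1, the homeobox gene at the posterior end of Hoxa, was at 1.05 ± 0.367 CPM, with 13 to 52 counts in a library, while its homologue Evx2 8.75 kb from Hoxd had no count. On the Hoxb side Ttll6 and Calcoco2, beyond Hoxb13, had at most 8 and 4 counts, while Skap1, at the anterior side, was at 2.08 ± 0.194 CPM.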
